A study of Homo sapiens with 12 samples.

Results

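The 40 genes described here are 18 glycolytic enzymes, 4 carriers of glucose or lactate, 4 kinases that set the pace of glycolysis or of pyruvate entry into mitochondria, HIF1A, and 13 targets of the hypoxia-inducible factors that do not act in sugar breakdown. They were taken by gene symbol from a table of 20318 gene entries, with the entry of highest mean used where a symbol repeats, and 40 of 40 were found and passed the filter on low values with 12721 entries in all. The cells were Z138, an established line of human mantle cell lymphoma, labelled wild type. Their RNA was sequenced 8 h or 24 h after the addition of AU-15330 at 0.5 µM or of DMSO, the solvent control. AU-15330 is a degrader that directs SMARCA2 and SMARCA4, the ATPases of BAF chromatin remodelling complexes, and PBRM1 of the PBAF form to the proteasome. All 4 groups were of this 1 line. The labels list 12 samples, 3 per group, and 11 libraries were used: DMSO at 8 h had n = 2, because 2 columns of the table share a name and every value and were counted as 1 library, and each other group had n = 3. The labels give each time its own batch, so time and batch cannot be told apart, but each AU-15330 group was compared with DMSO of the same time and batch. They do not say that replicates were separate cultures, so each p-value is set against a spread that could be technical alone.

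Glycolysis splits glucose into pyruvate in the cytosol, and lactate dehydrogenase then turns pyruvate into lactate and restores the cofactor that glycolysis uses. The hypoxia-inducible factor HIF-1 pairs the oxygen-regulated subunit HIF1A with the constant subunit ARNT. With oxygen present, EGLN enzymes hydroxylate HIF1A and VHL marks it for destruction, so its activity is set mostly at the protein level, which these data did not measure. HIF-1 binds the letters ACGTG or GCGTG near its targets, which include most glycolytic genes as well as genes for blood vessel growth, mitophagy, collagen maturation and its own hydroxylases. Proliferating B cell lymphomas are known for a high glycolytic rate that MYC also drives.

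The promoters printed here are examples from members that changed in opposite directions or did not pass the test. The genes were chosen by hand, and the start with the most matches was used for each. The lines were therefore sure to hold the letters of the HIF core and show nothing about how common those are. They were read from RefSeq windows on GRCh38.p14 that reach from 250 bases before to 50 after each start, which held 34 of the 40 members. Each line runs 5′ to 3′ on the gene's strand, with ACGTG or GCGTG in capitals wherever either strand holds them. Where the stretch touches a transcribed first exon, 30 bases with the most matches are shown. The palindrome CACGTG holds ACGTG on both strands and is also the E-box letters that MYC and USF factors bind.
ADM: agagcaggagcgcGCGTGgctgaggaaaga
ANKRD37: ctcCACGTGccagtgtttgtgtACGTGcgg
ALDOC: aggcCACGCccccggaggagtCACGTagct
PGK1: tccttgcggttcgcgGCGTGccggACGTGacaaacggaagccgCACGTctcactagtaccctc
LDHA: gactcaCACGTGggttcccgCACGTccgcc
GAPDH: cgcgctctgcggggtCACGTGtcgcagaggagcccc
HK2: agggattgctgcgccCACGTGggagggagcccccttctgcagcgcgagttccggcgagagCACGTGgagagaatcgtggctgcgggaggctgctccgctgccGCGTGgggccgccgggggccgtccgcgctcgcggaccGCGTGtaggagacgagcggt

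These stretches lie at chr11:10304959-10304988 for ADM, chr4:185396676-185396705 for ANKRD37, chr17:28576915-28576944 on the minus strand for ALDOC, chrX:78104022-78104084 for PGK1, chr11:18394470-18394499 for LDHA, chr12:6535168-6535203 for GAPDH and chr2:74834961-74835119 for HK2, all but ALDOC on the plus strand. Counted by gene, 31 of the 34 members with a window (91.2%) held ACGTG or GCGTG on either strand in at least 1 window, against 52.4% of the 27305 genes with one. ACGTG alone was in 21 of 34 (61.8%), against 24.9% of all genes. Members have more starts listed than most genes, and by single window the shares were 25 of 64 (39.1%) and 21.4% for ACGTG. At 24 h, ACGTG was in a window of 8 of the 12 members that rose, 8 of the 16 that fell and 5 of the 6 that did not pass the test. By single window these were 10 of 16 (62.5%), 10 of 40 (25%) and 5 of 8 (62.5%). Many of the 40 belong to HK1, PFKM, SLC16A3 and PFKP, which have several starts each, mostly without ACGTG. EGLN3 and P4HA2, which fell, and PGAM1, which rose, held neither ACGTG nor GCGTG in their window. No window was listed for SLC2A3, SLC16A1, VEGFA, BNIP3L, NDRG1 or HILPDA. A match is a description of the letters and not evidence that a factor was bound.

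Both the enzymes and the other HIF targets split in direction. Of the 40 genes, 10 rose and 15 fell under AU-15330 at 8 h, at an adjusted p under 0.05 by limma, and 15 did not pass. Over all 12721 entries 44.2% were called at 8 h, 22.9% higher and 21.4% lower. At 24 h 13 rose, 18 fell and 9 did not pass, with 50.9% of all entries called, 24.7% higher and 26.2% lower. The median log2 change of the 40 was -0.12 at 8 h and -0.01 at 24 h, beside 0.02 and 0.01 over all entries tested. A change of at least 1.5-fold past the test was seen for 3 genes up and 5 down at 8 h, where the shares of all entries were 3.93% and 9.12%. At 24 h it was seen for 5 up and 6 down, against 5.90% and 9.72% of all entries. The libraries of AU-15330 and DMSO did not overlap for 31 of the 40 at each time, against 62.5% of all entries at 8 h and 59.0% at 24 h. Log2 changes are differences of log2(normalised count + 60), given with a standard error (SE), where 59.4 normalised counts equal 1 CPM. They understate the change of low genes.

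**Figure D1:**
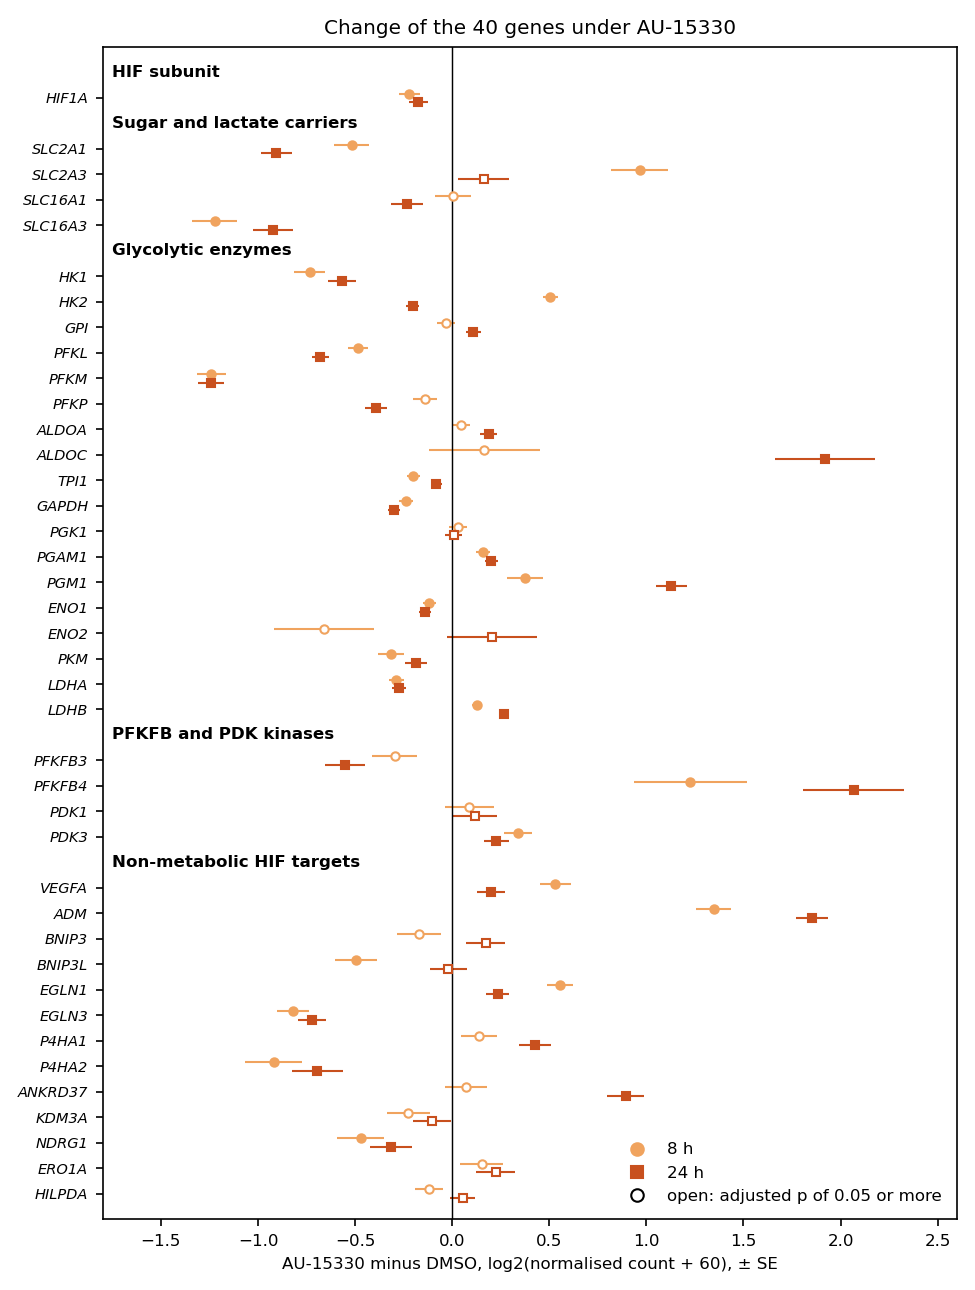
Log2 change of each of the 40 genes, AU-15330 minus DMSO on log2(normalised count + 60), at 8 h (circles) and 24 h (squares), with bars of 1 SE, grouped by role. Filled symbols passed an adjusted p of 0.05. Every role but the single HIF subunit has genes on both sides of 0, from -1.24 for PFKM to 2.07 for PFKFB4 at 24 h.

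Estimated totals were 50747502 to 67559327 counts per library. All 9 B cell markers passed the low filter, and their summed level was 3680 to 3730 CPM in DMSO and 3140 to 3240 under AU-15330 at 8 h, and 4130 to 4160 and 3430 to 3550 at 24 h, with 6 of 9 lower at 8 h and 7 of 9 lower and 1 higher (SOX11) at 24 h. Most of that sum was CCND1, which did not pass at either time, and the other 8 markers, a split made after their values were seen, summed to 1070 to 1090 CPM in DMSO and 640 to 677 with AU-15330 at 8 h, and 1390 to 1410 and 627 to 670 at 24 h. The median log2 change of the 9 was -0.87 at 8 h and -1.42 at 24 h. Of T cell markers 1 of 6 passed the filter, CD3G, and the list's sum was 13.5 to 13.6 CPM in DMSO and 4.36 to 5.78 with AU-15330 at 8 h, and 13.4 to 14.3 and 2.08 to 2.5 at 24 h. Stromal, endothelial and epithelial markers, 3 of 7 past the filter, summed to 17.5 to 22.7 and 5.69 to 9.56 CPM at 8 h and to 25.7 to 32.4 and 3.92 to 5.3 at 24 h, and no myeloid or erythroid marker passed the filter. The T cell list's CD2, 3 myeloid markers (CSF1R, MPO and S100A8), HBB, and COL3A1, VWF and KRT18 were not analysed here. The part of these differences in the results for the 40 genes was not tested. In bulk RNA, fewer cells of a type and less RNA per cell cannot be told apart. AU-15330 replicate 3 at 24 h stood apart in these genes: it was the lowest of its group for 27 of the 40, including 15 of 18 enzymes, where it was lowest for 34.3% of all entries tested. Without it, 15 members were higher and 15 lower at 24 h, where 2906 and 3228 of all 12721 entries were.

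HIF1A, the oxygen-regulated subunit, fell by 0.22 ± 0.0539 (SE) on the log2 scale at 8 h (adjusted p 0.00591) and by 0.18 ± 0.0482 at 24 h (adjusted p 0.0101). It was counted at 5335 and 5534 in DMSO and 4606, 4604 and 4745 under AU-15330 at 8 h, and at 5466, 5364 and 5218 against 4458, 4664 and 5088 at 24 h. Every AU-15330 library lay below every DMSO library of its time, with replicate 3 at 24 h the nearest to DMSO. Without the second DMSO library at 8 h the 8 h adjusted p was 0.0507. HIF1A lost its calls at both times with replicate numbers as a block. At 8 h that fit set AU-15330 replicate 1 against DMSO replicate 1 alone, here and below. Its partner ARNT rose at both times, by 0.63 ± 0.0504 (adjusted p 2.95e-06) and 0.70 ± 0.0451 (adjusted p 2.39e-07), from 4658 and 4659 in DMSO to 7300, 7177 and 7181 at 8 h. The other alpha subunits were near 0, with means over all libraries of 0.0623 CPM for EPAS1 and 0.144 for HIF3A. Of all entries, 44.2% were called at 8 h and 50.9% at 24 h. Of 13 regulators of HIF tested, 1 rose (ARNT) and 1 fell (CITED2) at 8 h, and 2 rose and 2 fell at 24 h. The latter were ARNT and SIAH1, a ubiquitin ligase that acts on the EGLN enzymes (0.31 ± 0.0535), and CREBBP, a HIF coactivator (-0.48 ± 0.0794), and SIAH2 (-0.31 ± 0.0698). VHL did not pass at either time (0.02 ± 0.0874 and 0.15 ± 0.0782).

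Of the carriers, SLC2A1 and SLC16A3 fell at both times and SLC2A3 rose at 8 h. SLC2A1, the main basal glucose importer, was counted at 2669 and 2738 in DMSO and at 1713, 1751 and 2178 under AU-15330 at 8 h, and at 3024, 2955 and 3104 against 1544, 1671 and 1548 at 24 h. The groups did not overlap, and the log2 changes were -0.52 ± 0.089 (adjusted p 0.000529) and -0.91 ± 0.0796 (adjusted p 2.15e-06). SLC16A3, the lactate exporter of highly glycolytic cells, stood at 923.7 and 797.7 in DMSO and 335.1, 373.3 and 296.1 under AU-15330 at 8 h, and at 791.5, 909.1 and 745.8 against 393.9, 375.1 and 434.9 at 24 h. It fell by 1.22 ± 0.115 (adjusted p 9.01e-06) and by 0.92 ± 0.103 (adjusted p 1.89e-05).

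SLC2A3, a high-affinity glucose carrier, was low in DMSO at 8 h, at 86.43 and 75.82, and reached 171.5, 217.5 and 265.2 in AU-15330. At 24 h the DMSO libraries held 306.6, 371.4 and 278.8 and those of AU-15330 held 344.8, 382.6 and 358.7. The 8 h groups were apart (0.97 ± 0.146, adjusted p 0.000739) and the 24 h groups overlapped (0.16 ± 0.131, adjusted p 0.297), while DMSO itself rose by 1.42 ± 0.146 between the times (adjusted p 0.000337), a rise that time and batch share. The 8 h call of SLC2A3 was lost with replicate numbers as a block, with AU-15330 replicate 1 set against DMSO replicate 1 alone. SLC16A1, the widespread lactate carrier, was at 8532 ± 1445 (SD, n = 2) and 8510 ± 159 (SD, n = 3) at 8 h (adjusted p 0.974) and at 9046 ± 144 and 7722 ± 746 (SD, n = 3 each) at 24 h (-0.23 ± 0.083, adjusted p 0.0367). That call was lost without any 1 of the 3 DMSO libraries or of AU-15330 replicates 1 and 2 at 24 h (adjusted p 0.0503 to 0.146, with a change of -0.15 without AU-15330 replicate 1), and its entry is uncertain, since it is not on the primary assembly and could share reads with the symbol's other entry. Of 9 further sugar and lactate carriers, 1 rose and 2 fell at 8 h and 1 rose and 4 fell at 24 h. The shares of all entries called were 44.2% and 50.9%. SLC2A6, a lysosomal hexose carrier, fell most, from 872.4 and 793.8 to 182, 158.1 and 184.5 at 8 h (-1.93 ± 0.0914) and from 840.6, 820 and 817.6 to 138.2, 140.1 and 158.2 at 24 h (-2.11 ± 0.0818); it has 2 entries with identical values. SLC16A7 and SLC2A5 fell at 24 h (-0.41 ± 0.0925 and -0.65 ± 0.149), and SLC2A13 rose at 8 h (0.80 ± 0.223, adjusted p 0.0106).

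The enzymes were tested next, in the order of the pathway. Of 18, 4 rose (HK2, PGAM1, PGM1 and LDHB), 8 fell (HK1, PFKL, PFKM, TPI1, GAPDH, ENO1, PKM and LDHA) and 6 did not pass at 8 h. At 24 h, 6 rose (GPI, ALDOA, ALDOC, PGAM1, PGM1 and LDHB), 10 fell (HK1, HK2, PFKL, PFKM, PFKP, TPI1, GAPDH, ENO1, PKM and LDHA, of which GAPDH was at 0.00 after quantile normalisation) and 2 did not pass (ENO2 and PGK1). Their median log2 change was -0.13 at 8 h and -0.11 at 24 h. Over all entries, 44.2% were called at 8 h and 50.9% at 24 h. Without AU-15330 replicate 3 at 24 h, 7 rose and 8 fell at 24 h.

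Hexokinase traps glucose in the cell as its phosphate. HK1 was counted at 2179 and 2180 in DMSO and 1279, 1435 and 1158 under AU-15330 at 8 h, and at 2045, 2078 and 1939 against 1363, 1384 and 1282 at 24 h. It was lower in every treated library at both times, by 0.73 ± 0.0807 (adjusted p 1.8e-05) and 0.57 ± 0.0722 (adjusted p 3.67e-05) in size on the log2 scale. HK2, the inducible isoform, changed by less than 1.5-fold and is given in full because its direction turned, a choice made after its values were seen. It stood at 6035 and 5926 in DMSO and 8589, 8753 and 8198 under AU-15330 at 8 h, but at 6729, 6870 and 6951 against 5865, 5957 and 5990 at 24 h. The change was 0.50 ± 0.0386 (adjusted p 1.7e-06) and then -0.20 ± 0.0345 (adjusted p 0.00057), and the difference between the times, -0.71 ± 0.0518, passed its test (adjusted p 1.52e-05). Per kilobase of exon, HK1 made up 31.7% ± 0.28 (SD, n = 2) of the sum of both in DMSO at 8 h and 16.1% ± 1 (SD, n = 3) in AU-15330, and 27.3% ± 0.95 and 22.3% ± 0.82 (SD, n = 3 each) at 24 h.

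Phosphofructokinase commits the sugar to glycolysis. PFKM, the muscle isoform, was at 10467 and 9084 in DMSO and 4178, 4231 and 3883 under AU-15330 at 8 h, and at 10302, 9699 and 9671 against 3930, 3995 and 4543 at 24 h. It fell by 1.24 ± 0.0747 (adjusted p 2.45e-07) and 1.24 ± 0.0669 (adjusted p 5.01e-08), the lowest value among the enzymes at each time. PFKL, the liver isoform, went from 7815 and 8129 to 5436, 5959 and 5662 at 8 h and from 9346, 9008 and 9626 to 5888, 5979 and 5550 at 24 h, or -0.48 ± 0.0508 (adjusted p 1.92e-05) and -0.68 ± 0.0454 (adjusted p 2.62e-07). PFKP, the platelet isoform, was at -0.14 ± 0.0614 at 8 h (adjusted p 0.0939) and fell by 0.39 ± 0.055 at 24 h (adjusted p 9.7e-05). All 3 isoforms were thus lower at 24 h, and their shares shifted: per kilobase, PFKM took 32.7% ± 2.8 (SD, n = 2) of the family in DMSO and 20.7% ± 1.2 (SD, n = 3) under AU-15330 at 8 h, and 29% ± 1.2 and 20.3% ± 1.9 (SD, n = 3 each) at 24 h. PFKP took 24.2% ± 1.1 and 33.1% ± 1.2 at 8 h, and 26.8% ± 1.1 and 33.9% ± 0.58 at 24 h.

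**Figure D2:**
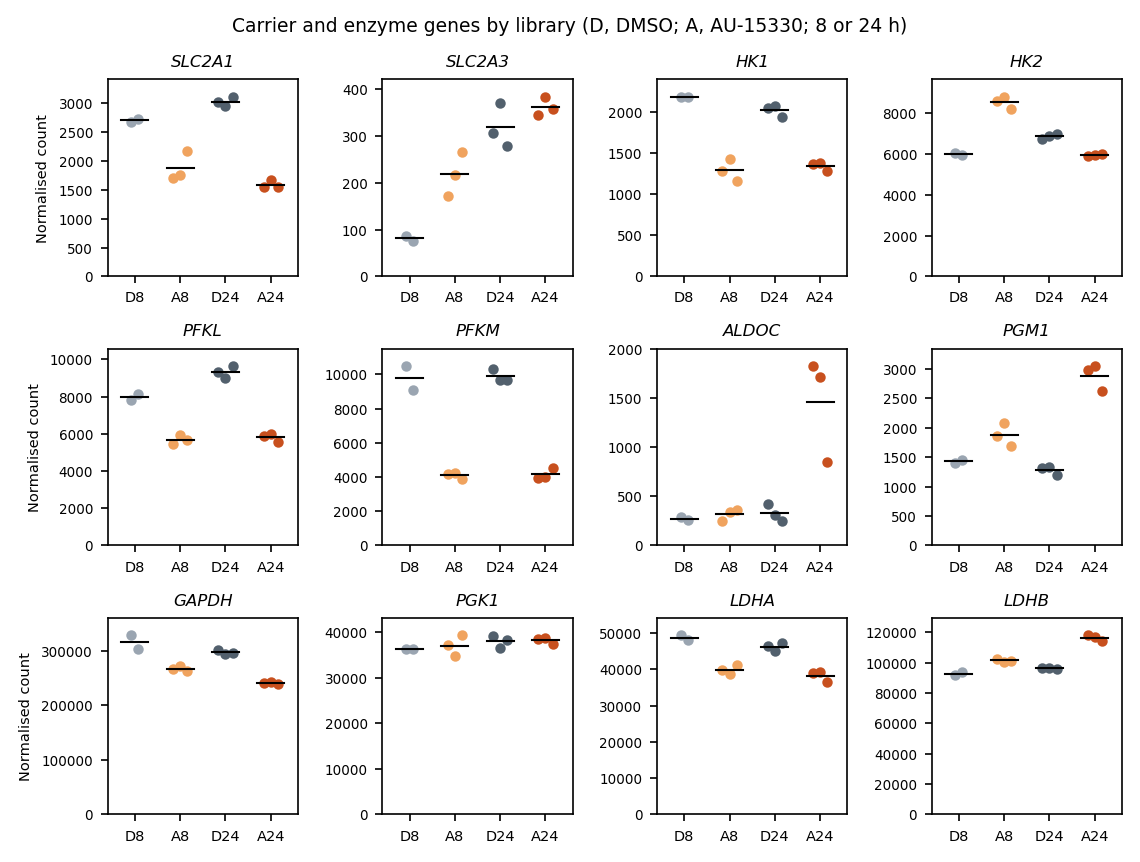
Normalised count of 12 carrier and enzyme genes in each of the 11 libraries (points) with the group mean (line), each panel on its own axis from 0. HK2 is above DMSO at 8 h and below it at 24 h, ALDOC is high under AU-15330 at 24 h alone (1823, 1711 and 845.8), and GAPDH is lower at both times on this scale, though not at 24 h after quantile normalisation.

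Aldolase cuts the activated sugar into trioses. ALDOC, the brain isoform, was at 286.3 and 258.3 in DMSO and 246.1, 338.9 and 362.5 under AU-15330 at 8 h, where the groups overlapped (0.17 ± 0.287, adjusted p 0.771). At 24 h it was at 425.5, 307.8 and 251.8 against 1823, 1711 and 845.8, with AU-15330 replicate 3 the nearest to DMSO. This was a rise of 1.92 ± 0.257 (adjusted p 0.000135), or 2.26 without that replicate, and the difference between the times passed (1.76 ± 0.385, adjusted p 0.0126). With replicate numbers as a block, that difference did not pass. Its 8 h effect was then AU-15330 replicate 1 against DMSO replicate 1 alone. ALDOC was still a small part of aldolase RNA per kilobase, 0.651% ± 0.17 in DMSO and 2.46% ± 0.78 under AU-15330 at 24 h (SD, n = 3 each). ALDOA, the main isoform, did not pass at 8 h (0.05 ± 0.0462) and rose by 0.19 ± 0.0413 at 24 h (adjusted p 0.00278).

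PGM1, which links glycogen breakdown to glycolysis, had 1400 and 1458 in DMSO and 1855, 2078 and 1699 under AU-15330 at 8 h, and 1324, 1336 and 1199 against 2982, 3046 and 2630 at 24 h. It rose by 0.38 ± 0.0907 (adjusted p 0.00805) and by 1.13 ± 0.0811 (adjusted p 5.58e-07), and the difference passed as well (0.75 ± 0.122, adjusted p 0.00169). The 8 h call was lost without DMSO replicate 1 (adjusted p 0.0568). GPI, the next enzyme after hexokinase, was at -0.03 ± 0.0443 at 8 h and rose by 0.11 ± 0.0396 at 24 h (adjusted p 0.0378), a call lost without any 1 of the 3 DMSO libraries or of AU-15330 replicates 1 and 2 (adjusted p 0.0625 to 0.133).

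The enzymes downstream of the trioses came next. GAPDH, which oxidises the triose phosphate, had 328621 and 303071 in DMSO and 266726, 272280 and 264055 under AU-15330 at 8 h, and 301084, 293710 and 297081 against 240719, 243517 and 239315 at 24 h. It was lower by 0.24 ± 0.0345 (adjusted p 0.00015) and 0.30 ± 0.0309 (adjusted p 6.75e-06) on the log2 scale with no overlap, but at 24 h the value was 0.00 after quantile normalisation, which gives a gene the mean value of its rank, and GAPDH held rank 4 or 5 in every library. PGK1, which makes the first ATP of the pathway, was at 36264 and 36195 against 37170, 34679 and 39255 at 8 h and at 39205, 36506 and 38354 against 38498, 38786 and 37393 at 24 h. Its groups overlapped and its changes were 0.03 ± 0.0484 and 0.01 ± 0.0433 (adjusted p 0.649 and 0.89).

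LDHA, the lactate dehydrogenase subunit that HIF-1 induces, had 49357 and 48097 in DMSO and 39831, 38833 and 41142 under AU-15330 at 8 h, and 46325, 45015 and 47267 against 39020, 39158 and 36499 at 24 h. LDHB, the subunit of oxidative tissues, moved the other way, from 91617 and 93857 to 102264, 100590 and 101319 at 8 h and from 96729, 96753 and 96033 to 117920, 116987 and 113982 at 24 h. No treated library overlapped DMSO for either gene. LDHA fell by 0.29 ± 0.0397 (adjusted p 0.000146) and 0.27 ± 0.0355 (adjusted p 6.52e-05), and LDHB rose by 0.13 ± 0.0266 (adjusted p 0.00189) and 0.27 ± 0.0238 (adjusted p 2.32e-06). The LDHA symbol has 2 entries with identical values, and whether they split its reads or repeat them was not tested, so its share is uncertain. From the sum of both, LDHA was 36.0% ± 0.81 (SD, n = 2) of the pair per kilobase in DMSO and 29.6% ± 0.56 (SD, n = 3) under AU-15330 at 8 h, and 33.8% ± 0.63 and 26.0% ± 0.44 (SD, n = 3 each) at 24 h. From 1 entry it was 21.9% ± 0.61 and 17.4% ± 0.39 at 8 h and 20.4% ± 0.46 and 14.9% ± 0.29 at 24 h, with the same n, and so lower with AU-15330 either way.

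The remaining enzymes had changes between -0.32 and 0.20 past the test. TPI1, which interconverts the trioses, ENO1, the main enolase, and PKM, which makes pyruvate, fell at both times (TPI1 -0.20 and -0.08, ENO1 -0.12 and -0.14, PKM -0.32 and -0.19), and PGAM1 rose (0.16 and 0.20). At 8 h ENO1 lost its call without DMSO replicate 1 (adjusted p 0.111) and PGAM1 without the second DMSO library (adjusted p 0.0562), and PKM was at -0.20 without DMSO replicate 1. At 24 h TPI1 lost it without DMSO replicate 1 or 3 or AU-15330 replicate 1 or 3 (adjusted p 0.0824 to 0.106) and PKM without DMSO replicate 1 or AU-15330 replicate 3 (adjusted p 0.0629 and 0.0763). ENO2, the neuronal enolase, did not pass at 8 h (-0.66 ± 0.258, adjusted p 0.0822) or 24 h (0.21 ± 0.231, adjusted p 0.423). Without AU-15330 replicate 3 at 24 h, where it held 186.3 against 434.3 and 398.2 in the other two, ENO2 passed at both times, at -0.66 (adjusted p 0.00708) and 0.52 (adjusted p 0.0093).

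PFKFB kinases make and remove the sugar bisphosphate that activates phosphofructokinase, and PDK kinases hold pyruvate back from mitochondria. PFKFB4 was at 99.52 and 62.54 in DMSO and 277.4, 292.6 and 234.7 under AU-15330 at 8 h, and at 116.8, 68.53 and 73.43 against 815.6, 619.2 and 315.3 at 24 h. All treated libraries were above all DMSO libraries, and the rise was 1.23 ± 0.29 (adjusted p 0.0207) at 8 h and 2.07 ± 0.259 (adjusted p 0.000131) at 24 h, where it was 2.41 without AU-15330 replicate 3. The 8 h call was lost without DMSO replicate 1 (adjusted p 0.0514), the second DMSO library (adjusted p 0.126) or AU-15330 replicate 2 (adjusted p 0.0534). PFKFB3 was at -0.30 ± 0.115 at 8 h (adjusted p 0.0503) and fell by 0.55 ± 0.102 at 24 h (adjusted p 0.000606). PFKFB4 was 8.66% ± 2.3 (SD, n = 2) of the pair per kilobase in DMSO and 28.1% ± 1.3 (SD, n = 3) under AU-15330 at 8 h, and 7.79% ± 2.5 and 44.3% ± 8.2 (SD, n = 3 each) at 24 h. PDK3 rose by 0.34 ± 0.0705 (adjusted p 0.00323) and 0.23 ± 0.063 (adjusted p 0.00881), and PDK1, the better known HIF target, did not pass (0.09 ± 0.127 and 0.12 ± 0.114). The 8 h call of PDK3 was lost with replicate numbers as a block, with AU-15330 replicate 1 set against DMSO replicate 1 alone.

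Lists of neighbouring metabolism split as well, beside 44.2% of all entries called at 8 h and 50.9% at 24 h. Of 8 other glycolytic genes tested, 2 rose and 3 fell at 8 h and 3 rose and 3 fell at 24 h. Among them ENO3, the muscle enolase, fell (-0.87 ± 0.0742 and -0.76 ± 0.0664), as did ADPGK, a glucokinase that uses ADP (-0.25 ± 0.067 and -0.35 ± 0.0599). BPGM, which makes bisphosphoglycerate, rose (0.45 ± 0.0562 and 0.31 ± 0.0503), and PFKFB2 rose at 24 h alone by the test (-0.03 ± 0.23 and 1.11 ± 0.206, difference 1.14 ± 0.309, adjusted p 0.0302). Of 10 genes of pyruvate entry, 3 rose and 3 fell at each time. The subunits of the mitochondrial pyruvate carrier moved apart: MPC1 fell by 0.28 ± 0.104 and 1.06 ± 0.0931, from 1478, 1307 and 1463 to 717.6, 556.6 and 683.5 at 24 h, and MPC2 rose by 0.52 ± 0.0588 and 0.44 ± 0.0526. DLAT, a pyruvate dehydrogenase subunit, rose (0.36 ± 0.0395 and 0.13 ± 0.0353) and DLD, another, fell (-0.17 ± 0.0516 and -0.34 ± 0.0462). In the pentose phosphate pathway, which branches off after hexokinase, 2 of 7 rose and 4 fell at each time, with PGD at -0.76 ± 0.0337 and -0.47 ± 0.0301, TALDO1 at -0.35 ± 0.0415 and -0.58 ± 0.0371, TKT at -0.26 ± 0.0308 and -0.26 ± 0.0275 and RPIA at 0.29 ± 0.0374 and 0.18 ± 0.0335.

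The 13 HIF targets outside metabolism were then set beside the enzymes. Of these, 3 rose (VEGFA, ADM and EGLN1), 4 fell (BNIP3L, EGLN3, P4HA2 and NDRG1) and 6 did not pass at 8 h. At 24 h 5 rose (VEGFA, ADM, EGLN1, P4HA1 and ANKRD37), 3 fell (EGLN3, P4HA2 and NDRG1) and 5 did not pass (BNIP3, BNIP3L, KDM3A, ERO1A and HILPDA). Their median log2 change was -0.12 at 8 h, against -0.13 for the enzymes, and 0.17 at 24 h, against -0.11. The calls lower at 24 h were 3 of 13 here and 10 of 18 among enzymes, against 26.2% of all entries. The difference between these shares was not tested. With a filter at 5 CPM, which removes P4HA2 and NDRG1, 2 and 1 targets were lower at 8 h and 24 h.

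**Figure D3:**
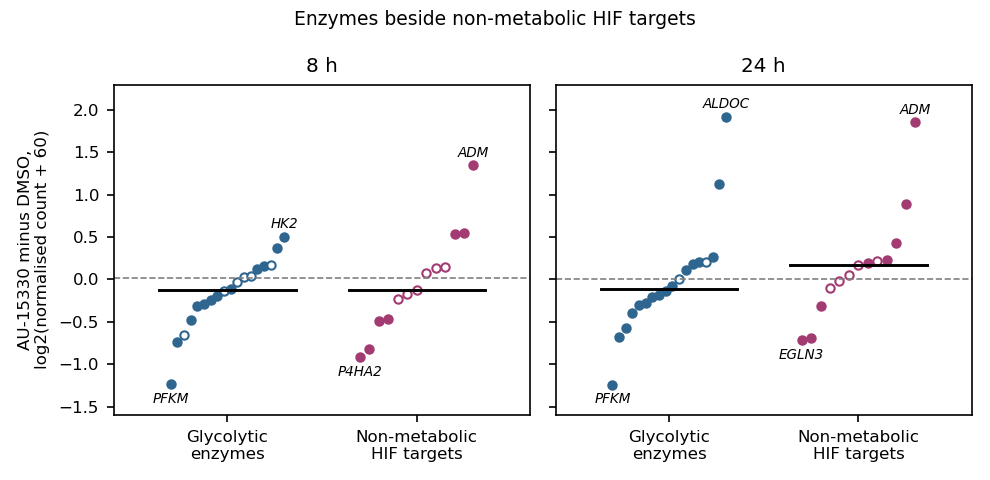
Log2 change under AU-15330 of the 18 glycolytic enzymes and the 13 non-metabolic HIF targets at 8 h and 24 h, each point 1 gene, filled where it passed an adjusted p of 0.05, with the median of each class (bar) and of all entries tested (dashed). Class medians are -0.13 and -0.12 at 8 h and -0.11 and 0.17 at 24 h, and the ranges overlap at both times.

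ADM, the vasodilator peptide adrenomedullin, changed most of these targets. It was counted at 989.9 and 1142 in DMSO and 2620, 2829 and 2949 under AU-15330 at 8 h, and at 1310, 1452 and 1281 against 5391, 5162 and 4536 at 24 h. The groups were far apart, at 1.35 ± 0.0901 (adjusted p 1.53e-06) and 1.85 ± 0.0806 (adjusted p 8.39e-09), and the effect was larger at 24 h (difference 0.51 ± 0.121, adjusted p 0.00325). ANKRD37, an ankyrin repeat protein, was at 429.8 and 385.5 against 462.5, 419 and 412 at 8 h, where the groups overlapped (0.07 ± 0.108, adjusted p 0.65). At 24 h it was at 411.4, 476.9 and 372.7 against 836.5, 888.3 and 764.4, a rise of 0.89 ± 0.0965 (adjusted p 9.85e-06), and the difference between times passed (0.82 ± 0.145, adjusted p 0.0022). For ADM and ANKRD37 alike, the difference did not pass with replicate numbers as a block. The 8 h effect was then AU-15330 replicate 1 against DMSO replicate 1 alone. VEGFA, the vascular growth factor, rose by 0.53 ± 0.0799 (adjusted p 0.000275) and 0.20 ± 0.0715 (adjusted p 0.0352). Its 24 h call was lost without DMSO replicate 1 (0.13, adjusted p 0.146) or 2 (adjusted p 0.0527) or AU-15330 replicate 1 (adjusted p 0.0569) or 2 (adjusted p 0.118).

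The prolyl hydroxylases differed within each family. EGLN3, an oxygen sensor that HIF-1 itself induces, was at 830.2 and 900.9 in DMSO and 459, 452 and 481.5 under AU-15330 at 8 h, and at 903.9, 864.3 and 786.8 against 488.1, 506.4 and 484.3 at 24 h. It fell by 0.82 ± 0.0805 (adjusted p 1.25e-05) and 0.72 ± 0.072 (adjusted p 8.58e-06) with no overlap. EGLN1, the main HIF hydroxylase, rose by 0.55 ± 0.0672 (adjusted p 6.24e-05) and 0.23 ± 0.0601 (adjusted p 0.00836), from 2514 ± 37.1 (SD, n = 2) to 3723 ± 288 (SD, n = 3) at 8 h. EGLN2, the other member of the family, did not pass (-0.08 ± 0.059 and -0.04 ± 0.0528). Per kilobase, EGLN3 went from 10.4% ± 0.21 to 5.52% ± 0.15 of the family at 8 h and from 9.71% ± 0.94 to 5.75% ± 0.17 at 24 h (SD, n = 2 in DMSO at 8 h and 3 elsewhere).

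P4HA2, a catalytic subunit of collagen prolyl hydroxylase, had 173.2 and 129.6 in DMSO and 40.31, 59.69 and 54.45 under AU-15330 at 8 h, and 262, 185.8 and 220.1 against 102.8, 108.1 and 131.3 at 24 h. It fell by 0.92 ± 0.148 (adjusted p 0.000735) and 0.69 ± 0.132 (adjusted p 0.00107), and was among the lowest genes studied, with a mean of 2.24 CPM. P4HA1, the other catalytic subunit, was at 0.14 ± 0.0932 at 8 h (adjusted p 0.313) and rose by 0.43 ± 0.0833 at 24 h (adjusted p 0.00132). P4HA2 went from 7.28% ± 1.5 (SD, n = 2) to 2.36% ± 0.42 (SD, n = 3) of the pair per kilobase at 8 h and from 8.61% ± 1.5 to 3.49% ± 0.92 (SD, n = 3 each) at 24 h.

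**Figure D4:**
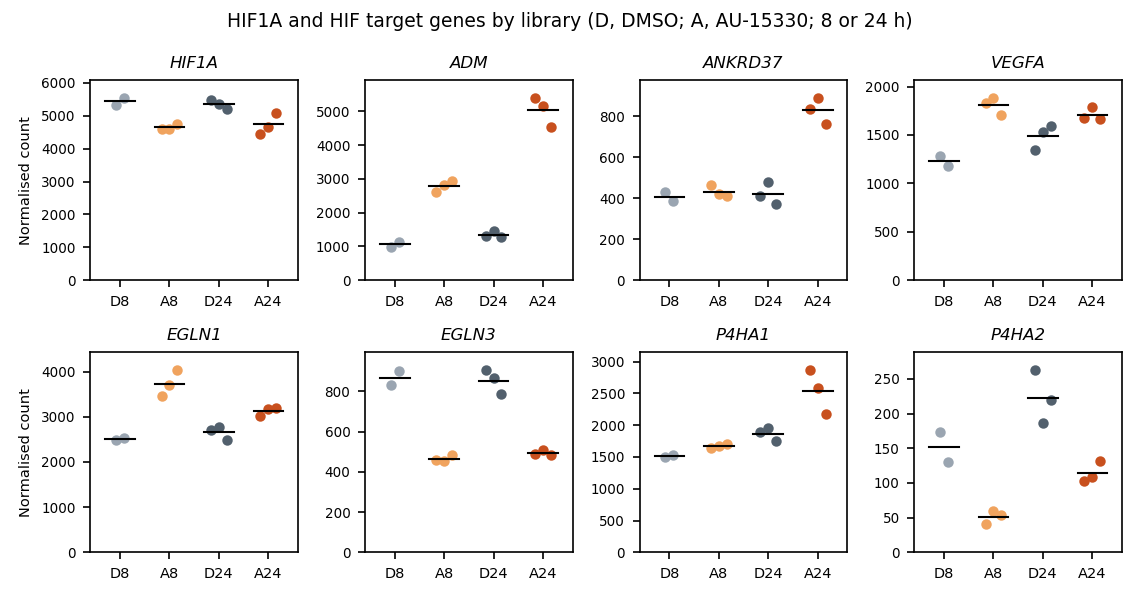
Normalised count of HIF1A and 7 HIF target genes in each of the 11 libraries (points) with the group mean (line), each panel on its own axis from 0. ADM is higher in all AU-15330 libraries at both times, ANKRD37 at 24 h, and EGLN3 and P4HA2 are lower in all of them.

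Mitophagy receptors and the remaining targets changed less. BNIP3L fell by 0.49 ± 0.107 at 8 h (adjusted p 0.00591), a call lost without DMSO replicate 1 (adjusted p 0.0608), and was at -0.02 ± 0.0961 at 24 h. BNIP3 did not pass (-0.17 ± 0.114 and 0.17 ± 0.102), but at 24 h was at 0.30 with an adjusted p of 0.00743 without AU-15330 replicate 3. NDRG1, a stress-response protein near the low filter at a mean of 1.16 CPM, fell by 0.47 ± 0.121 (adjusted p 0.00858) and 0.31 ± 0.108 (adjusted p 0.0316). Its 8 h call was lost without the second DMSO library (adjusted p 0.0529) and its 24 h call without DMSO replicate 2 or 3 or AU-15330 replicate 1 or 3 (adjusted p 0.0644 to 0.1). KDM3A, a histone demethylase, ERO1A, an oxidase of the endoplasmic reticulum, and HILPDA, a lipid droplet protein, were between -0.23 and 0.22 at both times without passing; ERO1A at 24 h was at 0.22 ± 0.0987 (adjusted p 0.0813), and at 0.29 without DMSO replicate 2 (adjusted p 0.0467).

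Of 20 further HIF targets tested, 7 rose and 6 fell at 8 h and 10 rose and 6 fell at 24 h. The shares of all entries called were 44.2% and 50.9%. TFRC, the transferrin receptor, rose by 0.08 ± 0.0302 and 0.52 ± 0.027, PLIN2, a lipid droplet coat, by 0.75 ± 0.056 at 24 h, and FAM162A by 0.51 ± 0.0787 and 0.61 ± 0.0704. KDM4B, a histone demethylase, fell by 0.79 ± 0.0649 and 0.89 ± 0.058. ANGPTL4 and LOX, both known for strong induction by hypoxia, were below the low filter, and CA9 was not analysed here.

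Time in culture was then compared within each treatment. In DMSO, 6 members were higher at 24 h than at 8 h (HK2, PFKL, PFKP, PDK3, SLC2A3 and BNIP3L) and 1 lower (ENO1), where 10.1% of all entries were called, 6.56% higher and 3.56% lower. Without DMSO replicate 1 at 8 h, 4 were called in all. In AU-15330, 16 were higher and 5 lower, where 39.4% were called, 18.3% higher and 21.1% lower. The 16 included 7 of the 13 non-metabolic targets: BNIP3L (0.86), ANKRD37 (0.86), ADM (0.83), P4HA2 (0.64), P4HA1 (0.57), NDRG1 (0.42) and HILPDA (0.19). They also included ALDOC (1.96), ENO2 (0.98), PFKFB4 (0.89), PGM1 (0.61) and SLC2A3 (0.61). The 5 lower were HK2 (-0.51), EGLN1 (-0.24), SLC2A1 (-0.23), ENO1 (-0.17) and GAPDH (-0.15, but 0.17 after quantile normalisation). By limma the adjusted p for GAPDH was 4.71e-06 after that normalisation, in the opposite direction. The difference between the AU-15330 effects at the times, which has DMSO of each time beside it, passed for 10 members, where 18.5% of all entries passed: 5 were higher at 24 h (ADM, ALDOC, ANKRD37, LDHB and PGM1), against 7.54% of all entries, and 5 lower (EGLN1, HK2, PFKP, SLC2A1 and SLC2A3), against 11.0%. HK2, PGM1, ALDOC, ADM and ANKRD37 passed whichever 1 library was left out, and the other 5 each lost the call without at least 1 library. With replicate numbers as a block, all of the 10 but HK2 and PGM1 lost the call. In that fit the 8 h effect was AU-15330 replicate 1 against DMSO replicate 1 alone. The members passing numbered 6 without DMSO replicate 2 or AU-15330 replicate 1 at 24 h, and 14 without AU-15330 replicate 3 at 24 h.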

How the data were processed

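RNA-seq values came from 11 libraries of Z138 cells. Per the submitters' processing notes, Trimmomatic 0.40, kallisto 0.46.1, DESeq2 1.24.0, R 4.3.2 and GRCh38.p13 were used by the authors, with no word on strand. The labels name a TruSeq RNA v2 and a Ribo-Zero Gold kit, without saying which served which sample. The deposited table holds log2 values whose floor is the same in every library, as a variance-stabilising transform gives, and not log CPM as had been planned for; it was inverted to normalised counts. On the deposited scale a doubling is 0.163 at 100 and 0.852 at 10000 normalised counts. Of values under 20 counts, 53.9 to 56.4% lay within 0.02 of a whole number, so no count test was run.

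Entries reaching 1 CPM in 3 or more libraries were tested by limma 3.58.1 (R 4.3.3, mean trend, 7 residual degrees of freedom) on the deposited scale, with Benjamini-Hochberg adjustment over 12721 entries. On simulated data with 200 of 12721 genes changed, 68% of 1.5-fold changes were recovered at 8 h and 80% at 24 h. Of the simulated calls, 3.42% and 8.28% were false, the latter above the nominal 5%. In the data themselves 5624 and 6476 entries were called, so these rates need not hold there. Lengths and positions came from GENCODE 29 and promoters from RefSeq. The members and lists were chosen with earlier results of these data known. Values by library are given for members past the test with at least 1.5-fold change at either time and for GAPDH, LDHA, LDHB, HIF1A and PGK1, and of each further list up to 4 genes of smallest p are named; 1 of these is not reported here. Alternatives were other scalings, scales, filters, priors, rows, a replicate block and each library left out. Tables were made with Python 3.11.15, pandas 2.3.3 and NumPy 2.4.6 and figures with Matplotlib 3.10.9.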

Additional observations from a re-analysis of the deposited data

Results flagged for a closer look

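The values here are the AU-15330 effect at 24 h minus that at 8 h, on log2(normalised count + 60), and each passed limma's test of that difference. Time and batch cannot be told apart in them.

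Among glycolytic enzymes and carriers, ALDOC (1.76), PGM1 (0.75) and LDHB (0.14) were higher at 24 h, and HK2 (-0.71), PFKP (-0.25), SLC2A1 (-0.39) and SLC2A3 (-0.80) lower. Among the other HIF targets, ADM (0.51) and ANKRD37 (0.82) were higher and EGLN1 (-0.32) lower. The calls of PFKP, SLC2A1, SLC2A3 and EGLN1 were lost without DMSO replicate 1 at 8 h (adjusted p 0.144, 0.111, 0.0766 and 0.0913), and without several other libraries. LDHB lost its call without the second DMSO library at 8 h (adjusted p 0.0633). With replicate numbers as a block, all of these members but HK2 and PGM1 lost their calls. The 8 h effect was then AU-15330 replicate 1 against DMSO replicate 1 alone.

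In neighbouring metabolism, PFKFB2 was at 1.14, PGD at 0.29, TALDO1 at -0.24, DLAT at -0.23 and MPC1 at -0.78. Of further HIF genes, PLIN2 was at 0.63, TFRC at 0.44 and SIAH1 at 0.42. SMARCA2, a target of the degrader, was at -0.39. Of the cell type markers named by the smallest p, these had a lower effect at 24 h: MS4A1 (-0.89), CD79A (-1.13), CD79B (-0.60), CD3G (-1.16) and COL1A1 (-1.24). Of the 9 B cell markers, 6 passed lower and 1 higher, SOX11 (0.96, named after its value was seen), and CCND1 and PAX5 did not pass (0.03 and 0.45).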

How the results depend on the processing

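Leaving out 1 library in turn, 18 of 25 members called at 8 h, 25 of 31 at 24 h and 5 of 10 for the difference between the times kept their call throughout. The counts ran from 8 to 10 higher and 13 to 18 lower at 8 h, 11 to 15 and 15 to 18 at 24 h, 5 to 14 for the difference, 4 to 9 for DMSO over time and 18 to 22 for AU-15330 over time. Of all 12721 entries, 4397 to 5698 were called at 8 h and 5774 to 6480 at 24 h in these fits. Under the other alternatives without a block, 25 of 25 and 24 of 31 calls were kept. At 24 h, 6 calls were lost under at least 1 of these and 1 was reversed. After quantile normalisation GAPDH was at 0.00 at 24 h and its difference between the times was 0.17; GAPDH ranks 4 or 5 in every library, and that method sets each rank to 1 value. With a filter at 5 CPM, which tests fewer genes, 2 of the non-metabolic HIF targets were lower at 8 h and 1 at 24 h. ACGTG alone was in 39.1% of member windows.

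Same-numbered samples deviated together little (r of -0.025 at 8 h and 0.0411, 0.03 and 0.0446 at 24 h), though at 24 h each correlated best with its own. At 8 h the 2 DMSO libraries mirror each other around their mean, so this cannot decide whether samples were paired. The replicate block took away the calls of ENO1, HIF1A, NDRG1, PDK3, PFKFB4, PGAM1 and SLC2A3 at 8 h. At 24 h it took away those of GPI, HIF1A, NDRG1, TPI1 and VEGFA. At 8 h the block set AU-15330 replicate 1 against DMSO replicate 1 alone, since each other 8 h library was a block of its own. Fewer of all entries were called at 8 h with it as well. Change over time within a treatment cannot be estimated with a block, since each block lies within 1 time. With the second DMSO column taken as replicate 2 in the block, chosen after seeing the data, the difference passed for 5 members by limma. DMSO at 8 h had 2 libraries, which limits the precision there, and the SE at 8 h was highest for PFKFB4 (0.29), ALDOC (0.287) and ENO2 (0.258). With 1 LDHA entry in place of the sum, an alternative chosen after seeing the data, its share was 21.9% and 17.4% at 8 h and 20.4% and 14.9% at 24 h.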
